A study of Mus musculus with 24 samples.

Results

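Overloaded plantaris muscle of wildtype mice was compared with untreated plantaris of wildtype mice, across all genes that the array measured. The plantaris is a fast ankle extensor and toe flexor of the hindlimb. The comparison used every wildtype array of the series, 6 from overloaded and 6 from untreated muscle, 12 of 24 arrays in all. In the overloaded group the synergists of the plantaris, the soleus and most of the gastrocnemius, had been cut away on both sides at an age of 3 months under pentobarbitone (50 mg/kg). The control mice of that age were left untreated, so the effects of overload and of surgery cannot be told apart. The other 12 arrays, 6 overloaded and 6 untreated, came from Mstn-/- mice, which carry the myostatin knockout, and served for the shared estimate of spread and for a short comparison of the responses. The sources used here do not state the wildtype strain, how long the overload lasted or the hour of sampling. Replicates are called biological replicates in the labels, 1 muscle side per array.

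Removing synergists forces the plantaris to carry the load of the whole calf. In this classical model of compensatory growth, fibres enlarge over days to weeks, satellite cells divide and fuse with fibres, and fibroblasts rebuild the connective tissue that passes force to the tendon. Macrophages enter the muscle early and clear debris. Fast fibres are known to shift their isoforms of contractile and metabolic proteins towards slower ones, and myostatin, a secreted TGF-beta family protein made by the fibres, restrains growth.

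All 18 of 18 skeletal muscle markers passed the level filter, and their summed intensity ran from 189491 to 195080 in untreated and from 152973 to 179516 in overloaded arrays. Median intensities of the wildtype arrays lay between 138.9 and 146.7, and no array duplicated another (the closest pair of arrays shared 0.0201% of its values). Overloaded replicate 3 stood apart on the first principal component and in several gene list means. The first principal component of the 12 wildtype arrays held 82.03% of the variance and separated the groups, with overloaded arrays between 29.42 and 34.85 except replicate 3 at 50.45. This array also had the highest mean of the macrophage list (1.83 on the log2 scale above the untreated mean, against 1.21 to 1.41 in the others) and of the neutrophil, eosinophil and mast cell list (0.86 against 0.18 to 0.38), and the lowest mean of the muscle markers (-0.40 against -0.21 to -0.13). What sets it apart was not tested. Without it, 4264 genes were called higher and 4871 lower.

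**Figure D1:**
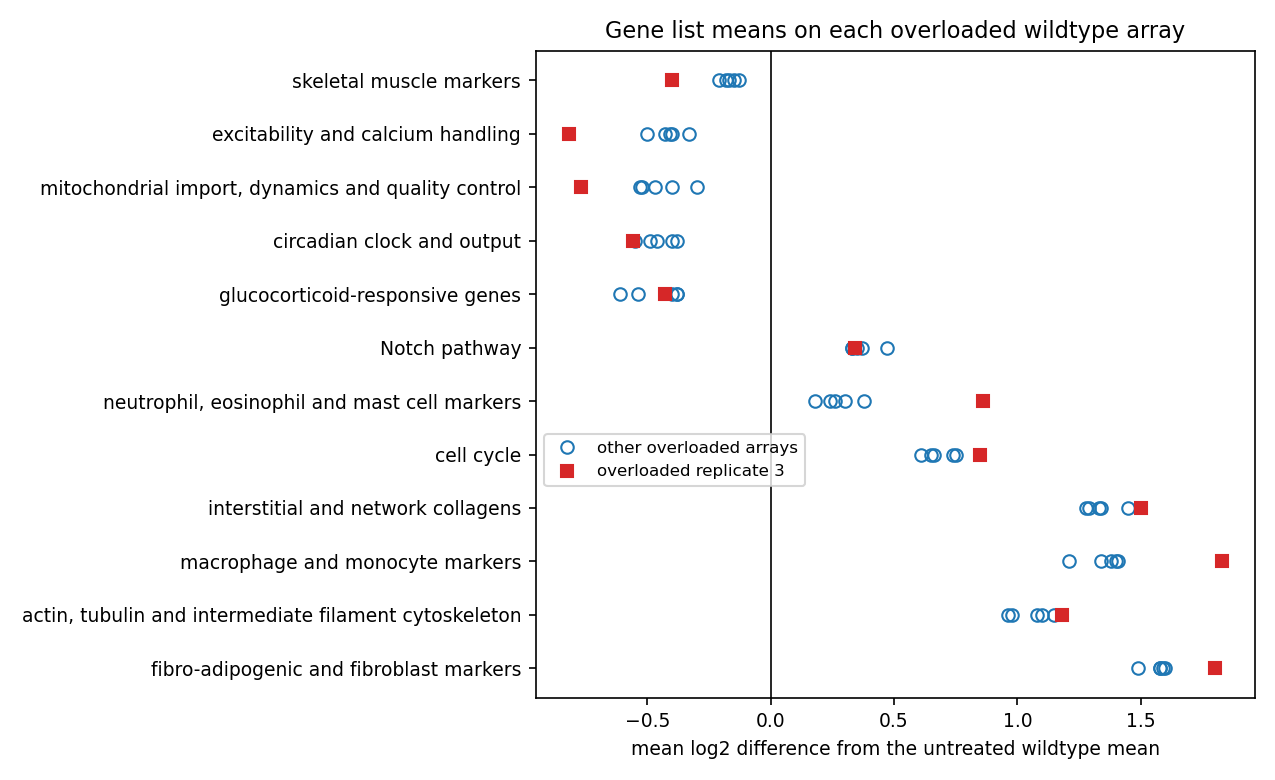
Mean log2 difference from the untreated wildtype mean over the tested genes of 12 gene lists (rows), 1 point per overloaded wildtype array, with replicate 3 drawn as a filled square and the other 5 arrays as open circles. The vertical line at 0 is the untreated mean. Replicate 3 lies outside the other arrays in most lists, by the widest gaps in the macrophage (1.83), neutrophil, eosinophil and mast cell (0.86) and excitability and calcium handling (-0.82) lists, and among them in the Notch list (0.34).

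Overload changed a large share of the measured transcriptome. A gene counts as called when its limma adjusted p, by the Benjamini-Hochberg method over the 14499 genes tested, is below 0.05. On this rule 9560 genes (65.9%) were called, 4396 (30.3%) higher and 5164 (35.6%) lower. These shares are the background for every count below. Most calls were small: 2797 of them were under 1.2-fold, and 863 genes (5.95%) were higher and 331 (2.28%) lower by at least 2-fold. Large changes were mainly rises, 150 against 22 genes at 4-fold and 22 against 0 at 8-fold. In 6230 genes (43.0%) the arrays of the 2 groups did not overlap. The balance of rises and falls depends on how arrays are aligned: 46.0% of calls were higher in the deposited values, and 34.2% when the arrays were shifted to one median over the tested genes (3633 higher, 7004 lower). The median log2 difference over all tested genes was -0.06 as deposited. In whole-muscle RNA, fewer cells of a type and less RNA per cell cannot be told apart.

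**Figure D2:**
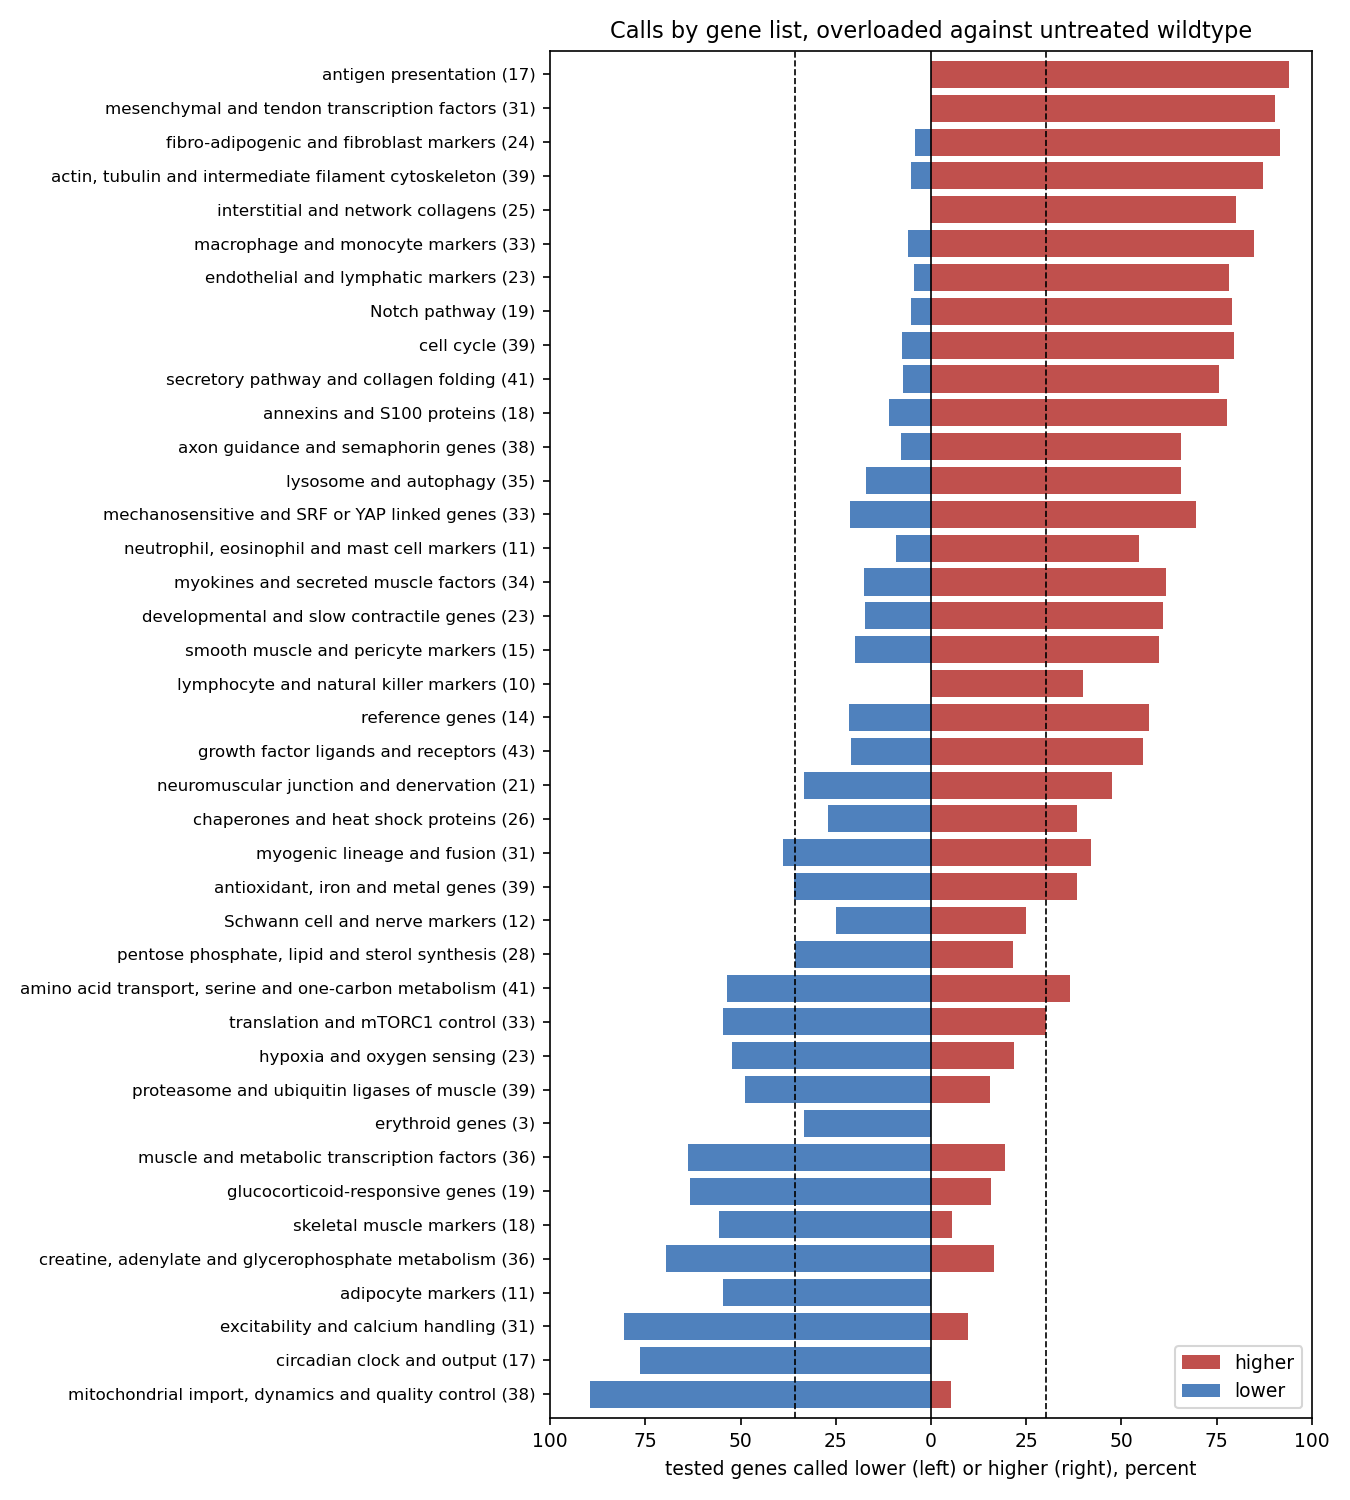
Share of the tested genes of 40 gene lists called higher (bars to the right) and lower (bars to the left) under overload, in percent, with the number of tested genes after each list name. Dashed lines mark the share over all 14499 genes (30.3% higher, 35.6% lower). Among mesenchymal transcription factors 28 of 31 were higher, and 34 of 38 mitochondrial import and dynamics genes were lower.

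Myostatin itself fell. Its intensity ran from 1099 to 1351 with a median of 1235 in untreated muscle and from 291 to 395 with a median of 332 in overloaded muscle. The 2 ranges were far apart, and the fall was 3.62-fold (log2 -1.86 ± 0.13, SE, limma adjusted p = 1.8e-12).

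The largest rises included those of C1qtnf3 and Mest. C1qtnf3, a secreted protein related to C1q and adiponectin, had intensities of 112 to 328 (median 148) in untreated arrays and of 3553 to 5211 (median 4187) in overloaded arrays, a rise of 4.68 ± 0.19 on the log2 scale (limma adjusted p = 2.2e-16). Mest, an imprinted gene of the alpha/beta hydrolase fold family, went from 162 to 299 (median 208) to 3754 to 5098 (median 4663). Every overloaded array lay above every untreated array for both genes. Sfrp1, Sfrp2 and Sfrp4 encode secreted frizzled-related proteins, which bind Wnt ligands, and Cthrc1 encodes a secreted protein of migrating fibroblasts. Sfrp1 ran from 126 to 196 in untreated and from 1169 to 1750 in overloaded arrays (9.52-fold), and Sfrp4 from 161 to 420 and from 1811 to 2525 (9.23-fold). Neither pair of ranges overlapped.

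Among the other large rises were those of several matrix proteins and of the collagenase Mmp14. Postn (periostin), a matricellular protein of growing connective tissue, ran from 689 to 1903 (median 970) and from 9305 to 12097 (median 10665). Vcan (versican), a large proteoglycan of loose matrix, ran from 177 to 354 (median 259) and from 1970 to 3122 (median 2332), and Aspn (asporin), a small collagen-binding proteoglycan, from 607 to 1128 (median 662) and from 5272 to 7806 (median 6317). The membrane collagenase Mmp14 ran from 287 to 416 (median 337) and from 2449 to 3987 (median 2833), a rise of 3.10 ± 0.10 (limma adjusted p = 5.8e-18). In these 4 genes each overloaded array exceeded each untreated array. Ccl8, a chemokine that draws monocytes, ran from 57.9 to 91.2 and from 544 to 1168 (median 690), with untreated levels below the level filter, a mean intensity of 98.9. Wfdc17, a small secreted protein expressed by macrophages, ran from 268 to 525 (median 375) and from 2902 to 4652 (median 3439). Both separated the groups.

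**Figure D3:**
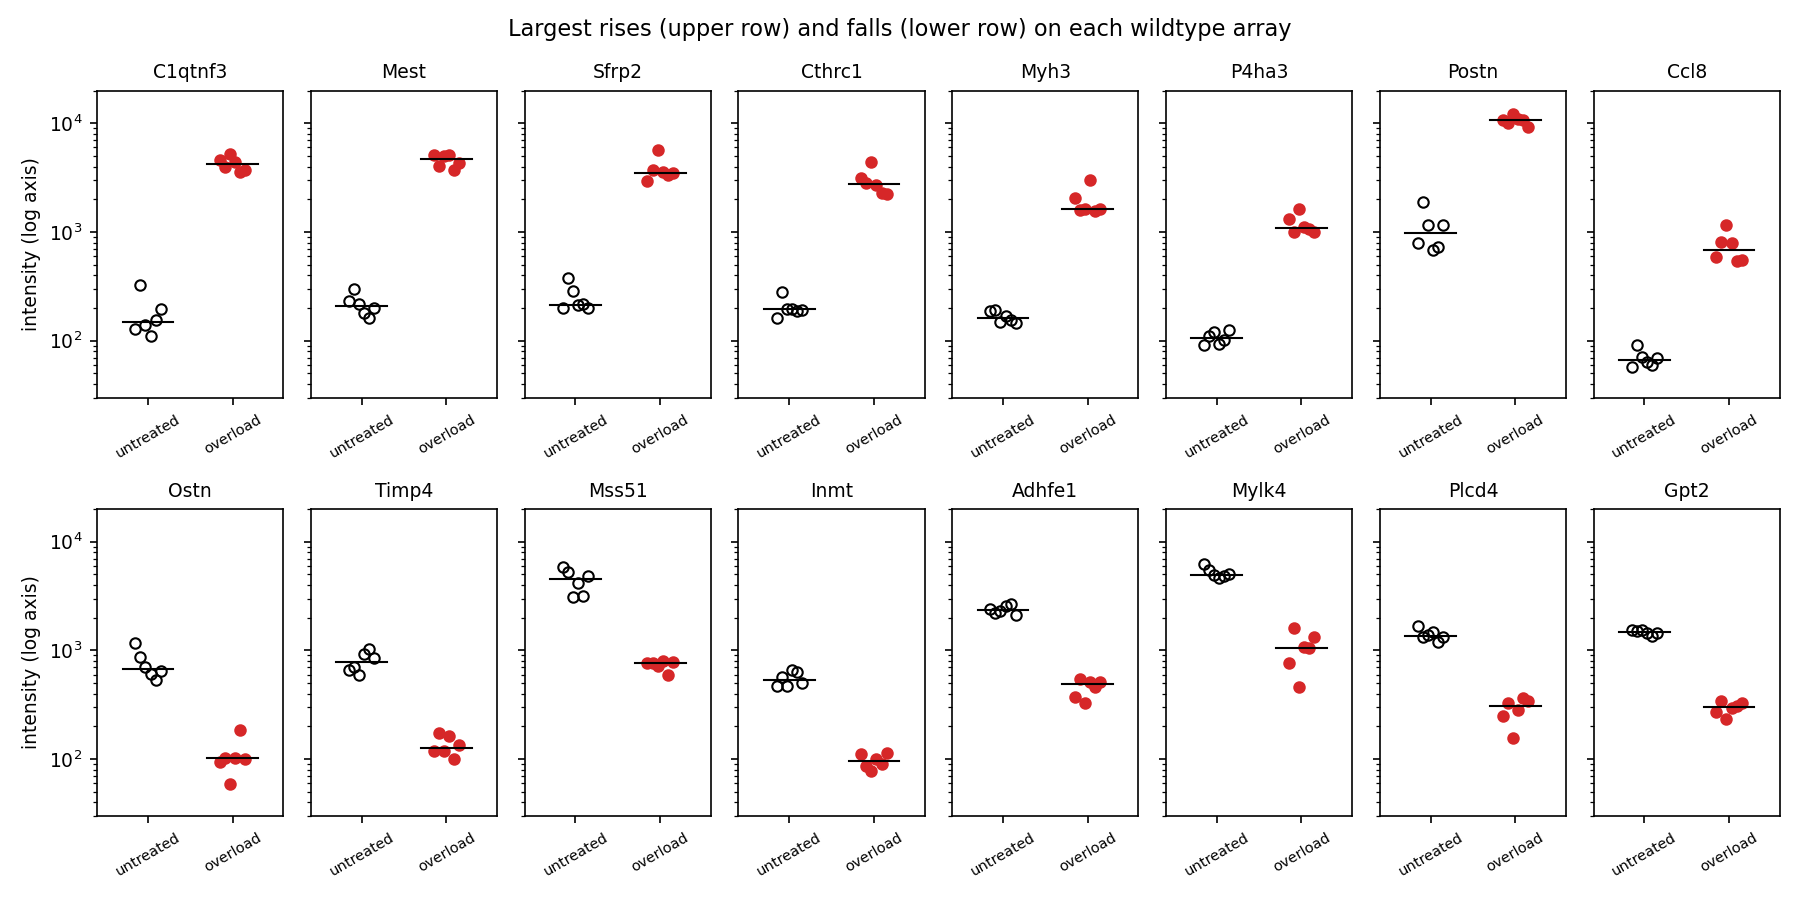
Intensity of 8 of the genes with the largest rises (upper row) and 8 of those with the largest falls (lower row) on every wildtype array, on a log axis. Open circles are the 6 untreated and filled circles the 6 overloaded arrays, and horizontal bars are group medians. The groups do not overlap in any of the 16 genes, and C1qtnf3 shows the widest gap (medians 148 and 4187).

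Genes for collagen chains, their folding and their export were mostly higher. Of 25 collagen genes tested 20 were higher and 0 lower, with a median log2 difference of 1.16, against -0.06 over all genes. Col14a1, a fibril-associated collagen, ran from 204 to 436 (median 324) in untreated arrays and from 2337 to 3298 (median 2647) in overloaded arrays, an 8.84-fold rise. Col8a1, a short-chain network collagen, rose 8.54-fold and Col12a1, another fibril-associated collagen, by 2.85 on the log2 scale. The 5 collagens not called were Col4a3, Col4a4, Col4a5, Col6a5 and Col22a1, at log2 differences between -0.10 and 0.04. Col22a1 is the collagen of the muscle-tendon junction, and the 3 collagen IV chains named are those of specialised basement membranes, while the common chains Col4a1 and Col4a2 rose by 0.86 and 0.87.

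Collagen chains are hydroxylated, folded and packed in the endoplasmic reticulum, and 31 of 41 genes of that route were higher, 3 lower, with a median of 0.80. The prolyl 4-hydroxylase subunit P4ha3 ran from 91 to 127 (median 106) and from 997 to 1638 (median 1098), and the lysyl hydroxylase Plod2, which marks telopeptides for stable cross-links, from 95.3 to 171 (median 143) and from 899 to 1757 (median 1227). Both sets of ranges were apart, with P4ha3 up by 3.47 ± 0.15 and Plod2 by 3.18 ± 0.15 on the log2 scale (limma adjusted p = 4.8e-16 and 2.2e-15). The other prolyl hydroxylase subunits P4ha1 and P4ha2 were not called, at log2 differences of -0.05 ± 0.08 and -0.09 ± 0.06, and their ranges overlapped. The collagen chaperone Serpinh1 (HSP47) rose 3.15-fold, the retrieval receptor Kdelr3 5.60-fold, the coat protein Sec24d by 1.67 and the reticulum-bound transcription factor Creb3l1, an activator of collagen genes, 2.95-fold. Genes of the unfolded protein response moved little: the chaperone Hspa5 rose 1.41-fold, and the stress factors Atf4 and Ddit3 fell 1.14-fold and 1.23-fold.

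The fibroblast markers moved with these genes. Of 24 tested, 22 were higher and 1 lower (Gsn), with a median of 1.58, and their summed intensity ran from 20737 to 28349 in untreated and from 62413 to 78698 in overloaded arrays. The share of the collagen and secretory rises that goes with cell number was not tested. Transcription factors of mesenchyme and tendon followed the same direction, 28 of 31 higher and 0 lower, with a median of 0.64. Snai2, a factor of mesenchymal cell identity, rose by 1.33, Prrx2, a limb mesenchyme factor, by 1.18, and the tendon factors Scx and Mkx by 0.92 and 0.64 on the log2 scale.

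Cytoskeletal genes that most cell types share rose broadly. Of 39 genes of actin, tubulin and intermediate filaments tested 34 were higher and 2 lower, with a median log2 difference of 1.29, and in 35 the groups did not overlap. Cfl1, the actin-severing cofilin of non-muscle cells, ran from 1150 to 1532 (median 1302) and from 3513 to 4414 (median 3715), a 2.89-fold rise (limma adjusted p = 8.9e-15). The non-muscle myosin Myh9 ran from 450 to 543 (median 497) and from 1100 to 1379 (median 1265). The ranges were apart for both. Tubulin genes rose too, Tubb2b by 2.15, Tubb6 by 1.87 and Tubb5 by 1.68. Among the forms of muscle fibres Cfl2 was not called (-0.05), Pfn2, a profilin, fell by 0.89 on the log2 scale and Synm, an intermediate filament protein at the Z-disc and costamere, by 1.04. Membrane-binding annexins and S100 proteins, which take part in membrane repair, were higher in 14 of 18 genes and lower in 2. Anxa1 rose 3.90-fold, Anxa2 3.50-fold and its partner S100a10 3.06-fold, while S100a1, the S100 protein of muscle fibres, fell by 0.57.

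Genes that respond to stretch were mostly higher, 23 of 33 against 7 lower, with a median of 0.40. Piezo1, a stretch-gated cation channel, ran from 464 to 571 (median 514) and from 1159 to 1553 (median 1370), a rise of 1.38 ± 0.07. The ankyrin-repeat protein Ankrd1 ran from 367 to 461 (median 443) and from 1035 to 2650 (median 1687), and the matricellular YAP target Ccn1 from 469 to 714 (median 581) and from 1771 to 3827 (median 2327). All 3 genes separated the groups, with a wide spread among overloaded arrays for the last 2. Csrp3, a Z-disc LIM protein, rose by 1.24, whereas the related sensor Ankrd23 and the LIM protein Fhl3 fell by 0.64 and 0.72. The transcription factor Srf, through which actin dynamics act on genes, fell 1.32-fold, and the cofactors Yap1 and Wwtr1 rose by 0.14 and 0.88.

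Macrophage genes rose as a group. Of 37 markers with a probe set 33 were tested, 28 of them higher and 2 lower (Timd4 and Retnla), with a median of 1.25. The call of Retnla, a product of alternatively activated macrophages, was lost without any single untreated array or without overloaded replicate 1, 5 or 6 (adjusted p 0.052 to 0.17). 5 of the 33 were above the level filter in overloaded muscle only, and over all 37 the median was 1.09. Ms4a7, a membrane protein of macrophages, ran from 41.4 to 74.2 (median 51.4) and from 390 to 742 (median 415), and since its untreated mean lies below the filter level the size of its rise (8.99-fold) is uncertain. The summed intensity of the 33 markers ran from 7925 to 9988 in untreated and from 24160 to 37358 in overloaded arrays, without overlap. Ccr2, the receptor of monocyte entry, rose by 1.91 from an untreated level below the filter and Trem2, a lipid receptor, by 0.75. The resident macrophage marker Cd163 was not called (-0.13), and Timd4, another, fell by 0.22 on the log2 scale. Both were picked after their values were seen. The resident markers Lyve1, Folr2 and Mrc1 of the same list are not described here, so these values do not speak for resident markers as a set. Nos2, the inducible nitric oxide synthase, was not called (0.04).

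Genes for presenting antigen on class II molecules rose with them. H2-Aa ran from 547 to 894 (median 712) and from 3459 to 4460 (median 3775), a 5.41-fold rise, and its chaperone Cd74 rose 4.48-fold. Of 19 genes of the list with a probe set 17 were tested, 16 of them higher and 0 lower. Of the 17, 2 were above the level filter in overloaded muscle only. Of 35 genes of the lysosome and autophagy 23 were higher and 6 lower. The proteases Ctsk and Ctss rose 8.27-fold and 6.34-fold, Ctsk from 174 to 280 (median 215) to 1640 to 2430 (median 1690), and the proton pump subunit Atp6v0d2 6.33-fold, though its untreated mean lies below the filter level. Ctsk and Ctss showed no overlap between groups. The 6 that fell include the autophagy genes Ulk1, Map1lc3b and Sqstm1 and the glycogen-degrading Gaa, by 0.59, 0.42, 0.36 and 0.52. Superoxide-producing oxidase subunits rose, Cybb 5.65-fold and Cyba 3.06-fold. Among enzymes that remove oxidants, the secreted or reticulum forms Sod3, Prdx4 and Gpx8 rose 1.84-fold, 2.09-fold and 3.44-fold, while the mitochondrial forms Sod2 and Prdx3 fell 1.97-fold and 2.01-fold and the glutathione transferase Gstm1 fell 2.88-fold. Prdx4 was below the level filter in untreated muscle. For these 6 enzymes the groups did not overlap, and the split by compartment was noticed after their values were seen.

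Other blood cells left weaker traces. Of 25 lymphocyte and natural killer markers with a probe set 10 were tested, 4 higher and 0 lower, and the defining genes Cd8a and Foxp3 were not called. Of the 10, 1 was above the level filter in overloaded muscle only. Foxp3 (-0.16) was called lower without untreated replicate 3 or overloaded replicate 1, 3 or 6 (adjusted p 0.027 to 0.048). Without a level filter 7 of these markers were called higher and with the stricter filter 1. Of 24 neutrophil, eosinophil and mast cell markers 11 were tested, with 6 higher and 1 lower. 2 of the 11 were above the level filter in overloaded muscle only, and the median was 0.35 over the 11 and 0.12 over all 24. Without a filter 10 were called higher and 2 lower, and with the stricter one 3 and 0. The neutrophil granule gene Ngp ran from 50.9 to 65.6 in untreated arrays and from 66 to 757 (median 88.2) in overloaded arrays, the highest being replicate 3, and S100a9 reached 470 on one overloaded array against a median of 153. Without replicate 3 the rise of Ngp was 0.68 on the log2 scale (limma adjusted p = 0.035). That fit kept the genes that had passed the level filter with all arrays, replicate 3 included. The untreated range of Ngp and its overloaded median of 88.2 lie below the filter level (98.9), so the size of its rise is uncertain. Whether Ngp passes the filter without replicate 3 was not tested, so the p-value without that array does not settle its rise. S100a9, a calprotectin subunit, was not called (limma adjusted p = 0.063), and was without overloaded replicate 2, 4 or 6 (adjusted p = 0.027, 0.03 and 0.037). The summed intensity of these 11 genes was 1310 to 1503 in untreated and 1649 to 2867 in overloaded arrays. Endothelial and lymphatic markers were higher in 18 of 23 genes by a median of 0.35, with the lymphatic gene Pdpn, which fibroblasts also express, at 1.82 and the receptor Flt1 lower by 0.73. Adipocyte markers were higher in 0 and lower in 6 of 11, with the lipid droplet protein Plin4 down by 1.33, and Schwann cell markers moved both ways (3 higher and 3 lower of 12, with 1 lower without overloaded replicate 3).

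Cell division genes rose. Of 41 cell cycle genes with a probe set 39 were tested, 31 of them higher and 3 lower, with a median of 0.71, and 10 of the 39 were above the level filter in overloaded muscle only. Besides the mitotic genes Top2a (log2 1.73, untreated level below the filter) and Cdk1 (1.27), the G1 cyclins Ccnd1, Ccnd2 and Ccnd3 rose by 1.04, 0.92 and 0.71. Of the inhibitors of division the imprinted Cdkn1c rose by 0.98 and Cdkn1b was not called (-0.12). In the Notch pathway, which keeps satellite cells undivided, 15 of 19 genes were higher and 1 lower: the receptor Notch2 rose 2.12-fold, the ligand Jag1 1.83-fold and the target Heyl by 0.40, while the target Hes1 fell by 0.25. Guidance molecules of axons and vessels were higher in 25 of 38 genes and lower in 3. Of the 38, 3 were above the level filter in overloaded muscle only and 1 in untreated muscle only. Plxnb2, a semaphorin receptor, ran from 244 to 307 (median 272) and from 918 to 1182 (median 1002), and Dpysl3, a cytoskeletal mediator of semaphorin signals, from 219 to 292 (median 237) and from 814 to 971 (median 853). The ranges lay apart in both. Epha3, an ephrin receptor, rose 3.66-fold from an untreated level below the filter, and Sema6c fell by 0.89.

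Insulin-like and platelet-derived growth factors rose while vascular and some fibroblast growth factors fell. Of 43 ligands and receptors 24 were higher and 9 lower, with a median of 0.28. Of the 43, 2 were above the level filter in overloaded muscle only and 1 in untreated muscle only. Igf2 ran from 511 to 620 (median 571) and from 3229 to 5166 (median 3965), a 7.02-fold rise (limma adjusted p = 7.1e-19), and Igf1 from 402 to 790 (median 610) and from 2355 to 3617 (median 2543). Both genes separated the groups. The receptor Igf1r was not called (0.07), and the scavenging receptor Igf2r rose by 0.55. Pdgfc, a mitogen of fibroblasts, rose 2.44-fold, and Hgf, a satellite cell activator, 2.38-fold from an untreated level below the filter, whereas its receptor Met fell by 0.44. Vegfa ran from 1852 to 2374 (median 2152) and from 949 to 1356 (median 1225), and fell with Vegfb and Fgf1 by 0.84, 0.75 and 0.78 on the log2 scale, none of them with overlap between groups. Among secreted muscle factors the follistatin-related Fstl1 ran from 751 to 1167 (median 919) and from 5960 to 7626 (median 6246), and the matricellular Ccn3 from 328 to 938 (median 360) and from 2274 to 3249 (median 2668). Ostn (musclin) ran from 541 to 1170 (median 672) and from 58.7 to 187 (median 102), and Il15, a cytokine of muscle fibres, fell 1.98-fold.

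A group of microRNA genes on chromosome 12 rose together. They lie between the imprinted genes Dlk1 and Dio3, in a stretch where one parental chromosome expresses the long RNAs Meg3 and Rian, from which many microRNAs and small nucleolar RNAs are cut, and the other expresses Dlk1 and Rtl1. The grouping was chosen after the values were seen. Array probe sets read RNA that spans the hairpin, so the values are levels of the precursor or host transcript and not of mature microRNA. Mature sequences of the 3 genes of the stretch with the largest rises, and of 4 microRNAs encoded elsewhere that are described below, are shown to identify them, from RefSeq (GRCm38.p6), 5′ to 3′, with the seed (bases 2 to 8), the part that pairs with targets, in capitals.
miR-382-5p: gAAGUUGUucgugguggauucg
miR-382-3p: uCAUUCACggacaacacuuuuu
miR-380-5p: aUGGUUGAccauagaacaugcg
miR-380-3p: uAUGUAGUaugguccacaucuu
miR-377-5p: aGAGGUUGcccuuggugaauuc
miR-377-3p: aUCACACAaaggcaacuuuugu
let-7c-5p: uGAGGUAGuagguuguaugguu
miR-99a-5p: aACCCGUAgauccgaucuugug
miR-181a-5p: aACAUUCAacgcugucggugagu
miR-181b-5p: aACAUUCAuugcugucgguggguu
The 6 arms from chromosome 12 have 6 different seeds, and the 2 miR-181 arms share one.

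All 40 microRNA genes of the stretch that have a probe set lay higher in overloaded muscle on average, with log2 differences between 0.04 and 3.29 and a median of 1.29. 25 of them passed the level filter, and 24 were called higher. Of the 25, 9 were above the filter in overloaded but not in untreated wildtype muscle. Mir666 was not called (0.04 ± 0.07). The 15 untested genes had differences of 0.14 to 2.10. The 256 microRNA genes with a probe set elsewhere had a median of -0.04, and of the 95 of them that were tested 18 were higher and 20 lower. Mir382 ran from 30.6 to 48.9 (median 34.8) and from 261 to 609 (median 338), a 9.81-fold rise of uncertain size because its untreated level lies below the filter. Mir134, measured above the filter in both groups, had a median of 233 in untreated arrays and ran from 627 to 1142 (median 789) in overloaded arrays (3.53-fold, limma adjusted p = 1.8e-11). Neither gene had overlapping groups. Mir431 and Mir540 rose by 0.34 and 0.35.

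The host RNAs and neighbouring genes were measured too. Meg3 ran from 424 to 544 (median 471) and from 3937 to 6076 (median 4459), and Rian from 48.3 to 69.1 (median 58.1) and from 248 to 377 (median 300), rises of 3.28 ± 0.14 and 2.39 ± 0.13 on the log2 scale, with Rian below the filter level in untreated muscle. Dlk1, a transmembrane relative of Notch ligands expressed from the other parental chromosome, ran from 233 to 298 (median 269) and from 768 to 1958 (median 1117), and Rtl1 from 112 to 152 (median 117) and from 132 to 195 (median 169). The rise was 4.36-fold for Dlk1, without overlap, and 1.35-fold for Rtl1, whose ranges overlapped. Before the stretch, Begain was not called (0.03 ± 0.06), and Wdr25 and Wars fell by 0.21 and 0.41. At its far end Dio3 did not pass the filter (0.05), and beyond it Ppp2r5c and Dync1h1 rose by 0.11 and 0.45 (limma adjusted p = 0.025 and 1.5e-10). The call of Ppp2r5c was lost without any 1 of 4 arrays. The genes were ordered by their RefSeq positions for the plot of values along the stretch.

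**Figure D4:**
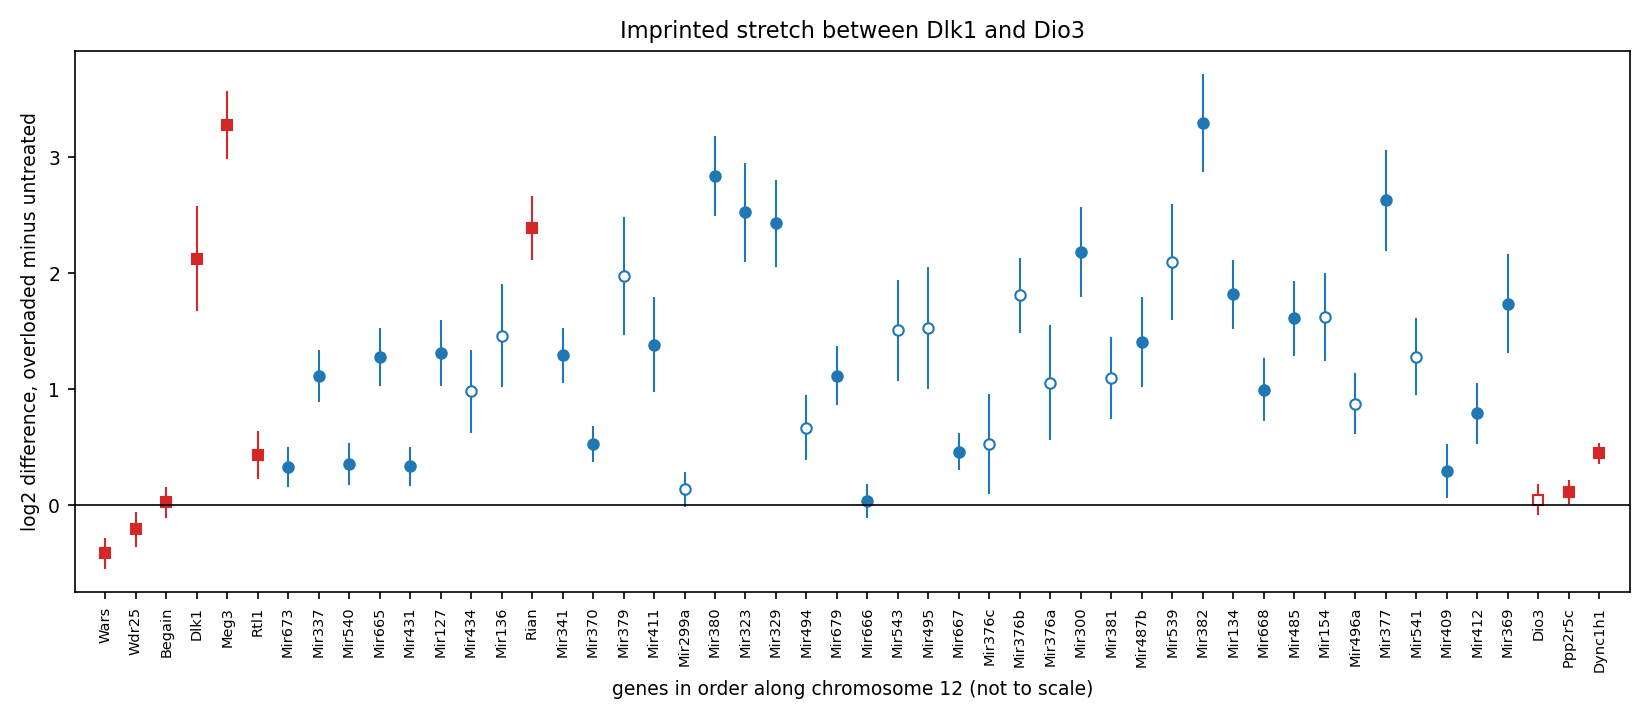
Log2 difference, overloaded minus untreated wildtype muscle, with the 95% confidence interval from the limma fit without a level filter, for microRNA genes (circles) and other genes (squares) of the imprinted stretch on chromosome 12, in gene order and not to scale. Filled symbols passed the level filter and open symbols did not. Values are above 0 from Dlk1 to the last microRNA gene, with Mir382 highest (3.29), below 0 in the flanking genes Wars (-0.41) and Wdr25 (-0.21), near 0 in Begain (0.03) and Dio3 (0.05) and above 0 in the flanking genes Ppp2r5c (0.11) and Dync1h1 (0.45).

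MicroRNA genes elsewhere moved both ways. Mirlet7c-1 and Mir99a, which are encoded side by side on chromosome 16, rose 3.56-fold (untreated level below the filter) and 2.75-fold, Mir99a from a median of 131 to 341 (lowest overloaded array 296), and their host transcript Mir99ahg by 1.12 on the log2 scale. Both microRNA genes separated the groups. Mir133a-1, a microRNA gene of striated muscle, fell 2.24-fold and Mir133a-2 1.48-fold. Genes of the miR-181 family differed by position. On chromosome 2 Mir181b-2 fell 2.13-fold and Mir181a-2 1.56-fold, the latter to a level below the filter (median 89.6). On chromosome 1 Mir181b-1 rose 1.96-fold, but its mean lay below the filter in both wildtype groups (medians 44.6 and 89.1). It was tested through the Mstn-/- arrays, and the size of its rise is uncertain. Mir181a-1 did not pass the filter (log2 difference -0.21). On chromosome 8 Mir181c (-0.08) and Mir181d (0.03) were not called. Mir23a and Mir27a, neighbours in 1 cluster, rose by 0.49 and 0.61.

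Adult muscle markers leaned lower, mostly by less than 2-fold, beside a strong rise of embryonic contractile genes. Of the 18 muscle markers 1, desmin (Des), was higher and 10 were lower, with a list median of -0.15 on the log2 scale. The call of Des (0.11 ± 0.04, adjusted p = 0.037) was lost without any 1 of 8 arrays, and without overloaded replicate 3 the markers called higher were 2. Skeletal actin (Acta1) ran from 16068 to 16631 and from 15841 to 17431, and the fast myosins Myh1 and Myh2 had log2 differences of 0.11 each and were not called, although Myh1 was without overloaded replicate 3 (0.13, adjusted p = 0.037). Myh4, the myosin of the fastest fibres, ran from 11201 to 11656 (median 11361) and from 4105 to 7004 (median 5394), a 2.12-fold fall (limma adjusted p = 4.8e-10). The groups did not overlap in Myh4 and did in Myh1 and Myh2. Of 23 developmental and slow contractile genes 14 were higher and 4 lower, with a median of 0.73. Embryonic myosin (Myh3) ran from 145 to 191 (median 162) and from 1570 to 3010 (median 1632), neonatal myosin (Myh8) rose by 1.79 and embryonic light chain Myl4 by 2.10. The slow and cardiac light chains moved otherwise: Myl2 was not called (0.01) and Myl3 fell by 0.96, next to a rise of 0.73 in slow myosin Myh7, whose call was lost without untreated replicate 1 (0.58, adjusted p = 0.056) or overloaded replicate 4 (0.61, adjusted p = 0.052).

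Genes of the myogenic lineage and of fusion moved both ways. Of the 31 tested 13 were higher and 12 lower, with a median of 0.03. Mymk (myomaker), which drives fusion of myoblasts, ran from 186 to 268 (median 225) and from 684 to 960 (median 886), a 3.82-fold rise, and myogenin (Myog) from 111 to 128 (median 116) and from 203 to 305 (median 242), 2.09-fold. Both had groups apart. Pax7 (0.04 ± 0.06), Myf5 (0.03) and Myod1 (0.13 ± 0.09), which mark satellite cells and myoblasts, were not called. Eya1 and Six4, partners in the fast-fibre gene programme, fell 2.84-fold and 1.78-fold.

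Genes of the neuromuscular junction and of denervated muscle moved both ways. Runx1, a factor induced in denervated fibres and also expressed by macrophages and fibroblasts, ran from 235 to 316 (median 282) and from 1352 to 2195 (median 1784), and Ncam1, an adhesion molecule of immature and denervated fibres, from 488 to 658 (median 581) and from 1300 to 1789 (median 1524). The groups were apart in both, with rises of 2.67 ± 0.12 and 1.40 ± 0.08. The fetal acetylcholine receptor subunit Chrng rose 1.69-fold and the adult subunit that replaces it, Chrne, fell 2.02-fold. Rapsn, which clusters receptors, fell 1.97-fold, and Musk and Ache fell by 0.40 and 0.45. Of 21 genes tested 10 were higher and 7 lower, and Gadd45a, another gene of denervated muscle, was not called (-0.08).

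Membrane excitability and calcium release genes fell broadly. Of 31 tested, 25 were lower and 3 higher, with a median log2 difference of -0.54, and the 3 that rose, Casq2, Sln and Atp2a2, are the isoforms of slow or cardiac fibres or the inhibitor of the calcium pump. Clcn1, the chloride channel that stabilises the resting fibre, ran from 1185 to 1444 (median 1273) and from 287 to 588 (median 487), a 2.79-fold fall (limma adjusted p = 1.8e-11). Jph1, which ties the T-tubule to the sarcoplasmic reticulum, ran from 3778 to 4454 (median 4140) and from 1119 to 1915 (median 1749). Kcnj2, an inward rectifier channel, ran from 783 to 933 (median 901) and from 228 to 469 (median 392). No group overlapped in these 3 genes. The calcium channel Cacna1s, its adaptor Stac3 and the release channel Ryr1 fell by 0.83, 1.03 and 0.58. Overloaded replicate 3 was lowest in the mean of this list (-0.82, against -0.50 to -0.33 in the other arrays).

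Several gene pairs exchanged an adult muscle isoform for a broadly expressed or slow one, a set put together after the values were seen. The fast calcium pump Atp2a1 ran from 16553 to 17100 and from 11558 to 13840 (1.28-fold lower), and the slow pump Atp2a2 from 1732 to 3140 and from 3704 to 5398 (1.91-fold higher). The fast calsequestrin Casq1 fell 1.22-fold and the slow and cardiac Casq2 rose 2.04-fold. Translation elongation factor Eef1a2, the muscle form, fell 1.31-fold and the general form Eef1a1 rose 2.31-fold, from between 4089 and 5588 to between 10634 and 12925. In none of these 6 genes did the groups overlap. Muscle creatine kinase Ckm fell 1.22-fold and its brain form Ckb rose 1.77-fold, and the adenylate deaminases Ampd1 and Ampd2 changed by -1.25 and 0.73 on the log2 scale. Lactate dehydrogenase broke the pattern, since Ldha and Ldhb both fell, 1.38-fold and 2.70-fold. The summed levels of macrophage and fibroblast markers given above moved with these pairs, and their part was not tested.

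After Ostn, the largest fall was that of Timp4, a metalloproteinase inhibitor, which ran from 593 to 1025 (median 778) and from 101 to 174 (median 127), a 5.87-fold fall. Mss51, a mitochondrial protein of muscle fibres, ran from 3119 to 5899 (median 4496) and from 597 to 796 (median 765), and the myosin light chain kinase family member Mylk4 from 4650 to 6232 (median 4983) and from 464 to 1619 (median 1065). The groups did not overlap in these genes. Adhfe1, a mitochondrial hydroxyacid transhydrogenase, ran from 2132 to 2669 (median 2362) and from 327 to 544 (median 489), and Pfkfb3, which makes the activator of phosphofructokinase, from 1314 to 2007 (median 1618) and from 261 to 374 (median 348). Plcd4, a phospholipase C, ran from 1197 to 1686 (median 1358) and from 157 to 369 (median 306). Each of these 3 separated the groups as well. The methyltransferase Inmt and the mitochondrial membrane protein Gdap1 dropped below the level filter, at medians of 96.1 and 67.8, so that the sizes of their falls are uncertain.

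Asb15 and Asb14, muscle proteins with ankyrin repeats and a SOCS box, ran from 1567 to 2362 (median 1737) and from 243 to 466 (median 420), and from 1627 to 2071 (median 1773) and from 245 to 513 (median 455). Their falls were 4.81-fold and 4.31-fold, with no overlap. Maob, a mitochondrial monoamine oxidase, ran from 749 to 908 (median 875) and from 157 to 231 (median 212), and Padi2, a peptidylarginine deiminase, from 2058 to 2550 (median 2376) and from 275 to 733 (median 575). Ppp1r1a, an inhibitor of protein phosphatase 1, fell 4.50-fold, the muscle membrane protein Smco1 4.18-fold, Klhl33, a Kelch protein, 4.38-fold, and Tlcd4, a membrane protein with a TLC domain, 4.51-fold. Tspan8 and Amy1 fell below the filter level in overloaded muscle, so that their falls of 4.91-fold and 4.69-fold are uncertain in size. Padi2 had the least precise fall of those named here (SE 0.21, against 0.10 for Maob).

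Glycerophosphate and nucleotide enzymes fell with creatine kinase. Of 36 genes of creatine, adenylate and glycerophosphate metabolism and of glycolysis 25 were lower and 6 higher, with a median of -0.46. Gpd2, the mitochondrial glycerophosphate dehydrogenase, ran from 2238 to 2709 (median 2504) and from 496 to 787 (median 681), and its cytosolic partner Gpd1, the other side of the shuttle that carries reducing power into mitochondria, from 3260 to 3753 (median 3420) and from 672 to 1966 (median 1324). The ranges lay apart in both, with falls of 3.85-fold and 2.71-fold. Phkg1, the catalytic subunit of phosphorylase kinase, fell 3.37-fold and Nt5c1a, which turns AMP into adenosine, 3.26-fold. Gamt, the last enzyme of creatine synthesis, rose by 1.32 on the log2 scale.

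Mitochondrial upkeep genes fell as a block. Of 38 genes of import, dynamics and quality control 34 were lower and 2 higher, with a median of -0.51. The kinase Pink1, which marks damaged mitochondria, ran from 2702 to 3051 (median 2856) and from 946 to 1485 (median 1376), and the fusion protein Mfn1 from 1318 to 1632 (median 1422) and from 506 to 903 (median 700). Neither overlapped. The fission factor Mtfp1 fell 2.23-fold and the matrix chaperone Hspd1 1.68-fold. The 2 that rose were subunits of the calcium uniporter, Mcu by 0.20 and Micu2 by 0.31, and the call of Mcu was lost without overloaded replicate 4 or 5 (0.16 and 0.17). In overloaded replicate 3 the mean of this list was -0.77, against -0.53 to -0.30 in the other arrays.

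Of 41 genes of amino acid transport and metabolism 15 were higher and 22 lower, and the members described here were picked after their values were seen. The neutral amino acid transporter Slc38a1 ran from 87 to 162 (median 109) and from 301 to 506 (median 316), 3.00-fold up, and Slc7a5, which with Slc3a2 carries leucine, from 265 to 416 (median 285) and from 542 to 635 (median 567), 1.86-fold up. Groups were apart in both. Among genes for the breakdown of branched-chain amino acids falls were seen in Bcat2 by 0.91, Bckdha by 0.75, Bckdhb by 1.28, Dbt by 1.21, Ivd by 1.05 and Mccc1 by 0.99, and so did Bckdk, the kinase that inhibits the pathway, by 0.94. Gpt2, the mitochondrial alanine aminotransferase, ran from 1345 to 1536 (median 1485) and from 232 to 343 (median 304), and the aromatic amino acid exporter Slc16a10 from 625 to 802 (median 679) and from 230 to 289 (median 276). In serine synthesis Phgdh was not called (0.05) and Psat1 rose by 0.44. Of 28 genes of pentose phosphate and lipid synthesis 6 were higher and 10 lower.

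Control of translation leaned downwards in transcript level. Of 33 genes 10 were higher and 18 lower, with a median of -0.23. Ddit4l, an inhibitor of the mTORC1 kinase, ran from 2298 to 3514 (median 2509) and from 563 to 1462 (median 1137), and Eif4ebp2, a brake on cap-dependent initiation, fell by 0.91. Rragd, a Rag GTPase that recruits mTORC1 to lysosomes, ran from 1706 to 2131 (median 1836) and from 465 to 818 (median 752). The initiation factor Eif4a1 rose by 0.63, and Mtor itself fell by 0.23. Groups did not overlap for Ddit4l and Rragd.

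Of 39 genes of the proteasome and of muscle ubiquitin ligases 19 were lower and 6 higher, and the ligases carried the larger changes. Fbxo32 (atrogin-1) ran from 2551 to 3554 (median 3236) and from 857 to 1646 (median 1264), Trim63 (MuRF1) from 1046 to 1396 (median 1199) and from 396 to 645 (median 595), and Fbxo31 from 2433 to 2799 (median 2680) and from 715 to 1002 (median 957). The ranges were apart in all 3. Proteasome subunits differed by at most 0.43 on the log2 scale, and 3 of the 6 genes that rose, Psmb8, Psmb9 and Psmb10, are subunits of the immunoproteasome of immune cells. Chaperones of the cytosol were higher in 10 and lower in 7 of 26 genes, with the myosin chaperone Unc45b down by 0.79.

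Transcription factors of adult muscle and metabolism fell, 23 of 36 against 7 higher, with a median of -0.40. The circadian and glucocorticoid lists moved alike. No clock gene rose, and 13 of 17 were lower by a list median of -0.51: Nr1d2 ran from 1665 to 2044 (median 1768) and from 925 to 1233 (median 1048), Ciart from 287 to 366 (median 315) and from 113 to 143 (median 123), and Rora from 1071 to 1226 (median 1103) and from 589 to 719 (median 704). The groups did not overlap in these 3 genes. The activator Arntl was not called (0.03 ± 0.08), nor was Cry2 (0.02). Of 19 glucocorticoid-responsive genes 12 were lower and 3 higher (1 without overloaded replicate 3), with the growth-restraining factor Klf15 at 707 to 828 (median 731) and 285 to 367 (median 345), Zbtb16 at 1704 to 2479 (median 2163) and 508 to 931 (median 821), and Fkbp5 1.67-fold lower. The hour of sampling is not given for either group, and its part in these values was not tested.

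Oxygen-sensing genes split. Hif1a ran from 628 to 805 (median 684) and from 1568 to 2291 (median 1881), and its relative Epas1 from 1862 to 2267 (median 2139) and from 1346 to 1591 (median 1552), 2.68-fold up and 1.39-fold down without overlap. The prolyl hydroxylases Egln1 and Egln3, which mark both factors for breakdown, fell 2.31-fold and 2.18-fold. Targets known to follow low oxygen did not rise together: Vegfa, Pdk1 and Bnip3 fell by 0.84, 0.52 and 0.97, Slc2a1 was not called (-0.25), and of 23 genes 5 were higher and 12 lower. The 5 became 3 without untreated replicate 1 or overloaded replicate 3 or 4. The membrane carbonic anhydrases Car14 and Car4 fell by 2.05 and 1.45.

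Some genes that rose also varied strongly among the overloaded arrays. The 6 called genes with the largest SD there, predicted models left out, were Ngp, Snord118, Lcn2, Fosb, Mmp13 and Snora33. Snord118, a small nucleolar RNA, ran from 64.3 to 235 and from 330 to 1868 (median 802). The acute-phase lipocalin Lcn2 ran from 159 to 205 and from 172 to 916 (median 290), the immediate early gene Fosb from 209 to 367 and from 341 to 1274 (median 441), and the collagenase Mmp13 from 74.5 to 99.2 and from 172 to 499 (median 339). Without overloaded replicate 3 the difference in Lcn2 was 0.58 and no longer called (adjusted p = 0.066). Lcn2 and Fosb overlapped between groups, and Snord118 and Mmp13, which was below the level filter in untreated muscle, did not.

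Promoter sequences were searched for short motifs of factors known from muscle and connective tissue. Each window runs from 250 bases before to 50 after a RefSeq start (GRCm38.p6), 11451 of the 14499 tested genes had at least 1, and motifs were searched on both strands. TATAAA, the TATA box, was in 7.98% of the windows of all tested genes and in 19.5% of those of genes called and at least 4-fold higher. Genes at least 2-fold higher had it in 12.6% and those at least 2-fold lower in 10.2%, and it was in 13.6% of all windows of the table, tested or not. TGANTCA is a loose form of the AP-1 site, which has C or G where N allows any base. It was in 5.58% of the windows of tested genes and in 16 of the 123 windows of genes at least 4-fold higher. Genes at least 2-fold higher had it in 7.40% and those at least 2-fold lower in 4.83%, and it was in 7.81% of all windows of the table. The MEF2 core motif, with only A or T at its middle positions, was in 69 of the 14505 windows of tested genes (0.476%), in 0 of the 811 of genes at least 2-fold higher and in 8 of the 352 of genes at least 2-fold lower (2.27%). CAGCTG, an E-box, was in 16.6% of the windows of tested genes, 19.5% of those of genes at least 4-fold higher and 20.5% of those of genes at least 2-fold lower. CATTCC, the TEAD site, was in 12.6%, 17.1% and 11.6% of the same windows. AAGGTCA, a nuclear receptor half-element, was in 3.36%, 1.63% and 3.98%. These shares describe letters in a window and say nothing on binding.

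Among the 20 largest falls 15 genes had a window and 1, Klhl33, a gene of striated muscle, held the MEF2 core motif before the start. Among the 20 largest rises 14 had a window and 1, Ms4a7, held TGANTCA there, with T at the open position and so not the strict AP-1 site. The surrounding bases are shown to place these motifs, 5′ to 3′ on the strand of the gene, with the motif in capitals.
Klhl33, chr14:50897499-50897558, minus strand, motif 50 bases before the start: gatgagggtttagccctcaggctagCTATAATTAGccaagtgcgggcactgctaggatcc
Ms4a7, chr19:11334745-11334801, minus strand, motif 81 bases before the start: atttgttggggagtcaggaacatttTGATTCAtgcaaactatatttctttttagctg
A match of this kind was not tested for function.

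Genes often used to scale transcript measurements were themselves changed. Of 14 reference genes 8 were higher and 3 lower. Gusb, a lysosomal enzyme, ran from 140 to 160 (median 149) and from 296 to 374 (median 312), Ppia from 1481 to 1958 (median 1675) and from 3039 to 3679 (median 3119), and Actb from 8371 to 10115 (median 8900) and from 14031 to 16298 (median 14440). Groups were apart in all 3, with rises of 2.14-fold, 1.89-fold and 1.62-fold. Ywhaz, an adaptor protein, and B2m, the light chain of class I molecules, rose by 0.69 and 0.65. Pgk1 and Sdha, enzymes of energy metabolism, fell 1.73-fold and 1.58-fold. Polr2a (0.15 ± 0.07), Rpl27 (0.12 ± 0.06) and Tfrc (-0.29 ± 0.14) were not called, and Tbp, Hprt, Rplp0 and Eef2 changed by 0.18 or less on the log2 scale in either direction. The calls of Hprt and Tbp were each lost without any 1 of 8 arrays, and those of Hprt, Rplp0 and Eef2 when the arrays were aligned on the median of the tested genes. Rpl27 was called higher without any 1 of 4 arrays, Polr2a without any 1 of 3, and Tfrc lower without overloaded replicate 2 or 4 (adjusted p = 0.033 and 0.018).

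**Figure D5:**
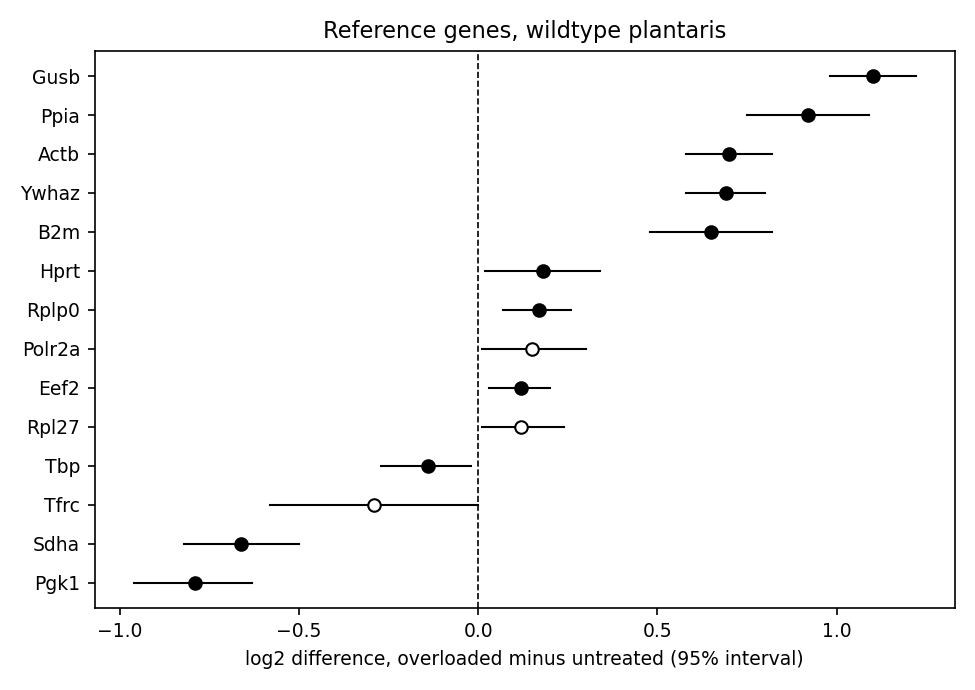
Log2 difference, overloaded minus untreated wildtype muscle, for the 14 measured reference genes, with the 95% confidence interval from the limma fit. Filled points were called and open points were not. The values run from -0.79 (Pgk1) to 1.10 (Gusb).

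The response was set against that of Mstn-/- muscle, which has its own untreated controls. The difference between the 2 responses, tested as an interaction in the same limma fit, was called for 2516 genes (17.4%). The 20 largest rises and the 20 largest falls were chosen for their size in wildtype muscle, which favours a smaller response in the other genotype. Among the 20 largest rises, the difference was not called for several, such as Mest (-0.06 ± 0.18, adjusted p = 0.88). Meg3 rose more in wildtype muscle (difference 1.33 ± 0.20, adjusted p = 4.8e-05). Among the 20 largest falls, Ostn, Mylk4 and Asb15 fell more in wildtype muscle (differences -1.73 ± 0.26, -1.68 ± 0.28 and -1.63 ± 0.17). Inmt was the only gene of these 20 for which the difference was not called (0.02 ± 0.22, adjusted p = 0.97). Of the lists, the clock genes had the highest share with a called difference, 12 of 17, with 6 higher and 7 lower in Mstn-/- muscle, where 27.1% of all genes were higher and 33.5% lower. The clock repressor Ciart rose by 0.95 there against a fall of 1.36 in wildtype (difference -2.31 ± 0.24). The clock activator Arntl fell by 1.77 there and was not called in wildtype muscle (0.03). Both were picked after their values were seen. The hour of sampling is not stated, and its part in the clock gene differences was not tested. Slow-isoform genes Atp2a2 and Casq2 rose more in Mstn-/- muscle (differences -0.67 ± 0.19 and -0.56 ± 0.19, adjusted p = 0.016 and 0.045). They too were picked after their values were seen.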

How the data were processed

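Plantaris RNA was measured on 24 one-colour arrays, 1 per muscle, in 4 groups of 6. Per the submitters' processing notes the authors made the values with RMA (version not given), and the deposited table holds intensities on a linear scale for 34760 probe sets. The values were turned to log2 without a pseudocount, since RMA had already aligned the deposited intensities. Gene names came from GEO's platform annotation, updated through RefSeq (GRCm38.p6): 21640 probe sets have 1 symbol, 1321 several and 11799 none. 21620 of the symbols matched RefSeq. Each of 19937 genes was read from the probe set with the highest mean over all arrays.

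Genes were tested where the mean of at least 1 group exceeded the 30th percentile of annotated probe sets, an intensity of 98.9, which left 14499. Of these, 383 were above that level in overloaded but not in untreated wildtype muscle, and 469 in untreated but not in overloaded wildtype muscle. Above it in overloaded muscle only was 1 tested member each of the cytoskeletal, excitability, mesenchymal factor, muscle factor, lysosome, antioxidant and endothelial lists. In the myogenic list this was 1 member, with 2 above it in untreated muscle only. The neutrophil, adipocyte, Schwann cell and secreted factor lists each had 1 member above that level in untreated muscle only. Genes below it in both wildtype groups, such as Mir181b-1, were tested through the Mstn-/- arrays. limma 3.58.1 in R 4.3.3 fitted 4 group means to all 24 arrays (20 residual degrees of freedom, Benjamini-Hochberg threshold 0.05). The median SE was 0.067 on the log2 scale. Precision is set by having 6 arrays a group. Nothing says that replicates are separate animals, so p-values measure the spread between arrays. Simulated data had independent normal noise on every array and 200 of the 14499 genes changed. In them 25.3% of genes changed by 0.2, 61.3% by 0.3, 93.3% by 0.5 and 100% by 1 (log2) were called, with 3.67% of calls false. The measured comparison had far more calls (65.9% of genes) and an array that stood apart, so these shares need not hold for it.

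Named genes are Mstn, the 20 largest rises and falls without overlap between groups, up to 2 risen and 2 fallen members of each list with the smallest adjusted p, the 6 called genes of largest SD in overloaded muscle and the reference genes, predicted models left out. Other genes were named after their values were seen. Members and lists were chosen with earlier results of these data known. Alternatives were quantile or median alignment, no or a stricter filter (50th percentile, 183), the mean of a gene's probe sets, trended variance, array weights, wildtype arrays alone, a replicate block and leaving out each array. Protein sequences were not used here.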

Additional observations from a re-analysis of the deposited data

Results flagged for a closer look

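For the genes in the text, the gap from the highest or lowest array to its nearest neighbour was divided by the range of the group on the log2 scale. In 47 of 564 groups (8.33%) this share passed Dixon's 95% critical value for 6 samples, which chance passes in about 1 in 20 groups. Overloaded replicate 3 was the array concerned in 32 of them. It was lowest, with the share in parentheses, in Ache (0.801), Ampd1 (0.681), Asb14 (0.692), Asb15 (0.674), Atp2a1 (0.676), Bnip3 (0.663), Cacna1s (0.640), Ckm (0.638), Epas1 (0.759), Eya1 (0.657), Fgf1 (0.628), Kcnj2 (0.731), Klf15 (0.695), Ldha (0.862), Mtfp1 (0.649), Pink1 (0.649), Plin4 (0.628), Ryr1 (0.783), Trim63 (0.771), Unc45b (0.730) and Zbtb16 (0.703). It was highest in Ctsk (0.697), Cyba (0.764), Eef1a1 (0.652), Igf1 (0.676), Mir99ahg (0.736), Notch2 (0.670), P4ha1 (0.670), Ppia (0.648), S100a9 (0.653), Sfrp2 (0.655) and Snai2 (0.760). Other overloaded arrays stood apart in Csrp3 (0.665), Il15 (0.722), Mss51 (0.688), Mymk (0.662), Slc2a1 (0.654) and Slc38a1 (0.663). Untreated arrays stood apart in Ccn3 (0.724), Cthrc1 (0.642), Fgf1 (0.840), Gstm1 (0.829), Ivd (0.748), Mkx (0.761), Myh8 (0.663), Myl2 (0.681) and Phgdh (0.767).

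The difference between the wildtype and the Mstn-/- response, tested as an interaction, was called in 34 of 45 genes examined for it. Most of these genes were picked for large changes in wildtype muscle, which favours such a difference. Arntl, Ciart, Atp2a2 and Casq2 were not among the largest wildtype rises or falls, and Arntl was not called in wildtype muscle (0.03). They were picked after their values were seen, and the difference was called in all of them. The share called is therefore raised by selection and does not hold for genes at large. On the log2 scale the wildtype response lay above that of Mstn-/- muscle in Arntl (1.80), Aspn (0.76), Col14a1 (0.68), Cthrc1 (0.89), Meg3 (1.33), Mir382 (0.86), Mmp14 (0.94), Myh3 (0.95), P4ha3 (1.01), Plod2 (0.74) and Vcan (0.64). It lay below in Adhfe1 (-1.29), Amy1 (-0.94), Asb14 (-1.06), Asb15 (-1.63), Atp2a2 (-0.67), Casq2 (-0.56), Ciart (-2.31), Gdap1 (-1.02), Gpt2 (-1.05), Klhl33 (-1.38), Maob (-1.16), Mss51 (-0.89), Mstn (-1.18), Mylk4 (-1.68), Ostn (-1.73), Padi2 (-1.27), Pfkfb3 (-0.83), Plcd4 (-1.50), Ppp1r1a (-0.89), Smco1 (-1.51), Timp4 (-1.35), Tlcd4 (-0.86) and Tspan8 (-0.68). Whether the Mstn probe set reads the deleted part of the Mstn-/- allele was not tested, so the value of Mstn in this comparison cannot be read as a difference in response.

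Probe sets without a gene symbol, which the comparison above leaves out, also differed between the wildtype groups: 2313 of 5952 (38.9%) were called.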

How the results depend on the processing

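The counts of genes called higher (4396), lower (5164), at least 2-fold higher (863) or lower (331) stayed within 1.5 times under all 22 alternatives, and that of genes differing between genotypes (2516) under the 21 that keep the Mstn-/- arrays. Leaving out each wildtype array in turn gave 4264 to 4410 higher, 4834 to 5301 lower, 796 to 891 and 272 to 378 at 2-fold, and 2141 to 2755 genotype differences. With the replicate number as a block 4383 were higher and 5129 lower. Same-numbered arrays correlated between -0.34 and 0.15 in their deviations from the group means. These values show no pairing by number but cannot exclude one. Aligning arrays on the median of the tested genes, an alternative chosen after seeing the data, gave 3633 higher and 7004 lower and moved the median gene by -0.09. Of 282 genes in the text 14 lost the call and 13 gained it under at least 1 alternative, and 0 reversed while called. Lists moved by over 1.5 times in 78 of 1760 list counts, 18 of them under the alignment just named, where 5 in place of 8 reference genes and 6 in place of 10 translation genes were higher. The cause was not tested. Fits without a filter called 4651 higher and 6325 lower, and the stricter filter 3778 and 4198 of 10767 genes. Folds of genes with 1 group below the level filter are the least certain.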
